A study of Mus musculus with 2 samples.

Results

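eBMSC-1 is the larger of the 2 embryo-enriched groups of bone marrow stromal cells (BMSCs) that the study separated in the fetal mouse femur, and Col3a1 is among the genes that mark it. Its members were taken as the cells of the wild-type library that the study's cell table places in BMSC cluster 2 at E18.5, which gave 940 of 1649 listed E18.5 BMSCs. The other 709 listed cells were 231 mitotic BMSCs, 149 eBMSC-2 cells, 202 and 102 osteolineage cells (OLCs-1 and OLCs-2) and 25 cells of the adult-enriched type (aBMSCs). The cell table gives cluster numbers, and the study's subcluster names were assigned to them here from marker genes. The study asked which cells of the fetal marrow surround the incoming haematopoietic stem and progenitor cells (HSPCs), and whether Wnt from arterial endothelial cells has a role in the development of stem cells and HSPCs. Both libraries came from C57BL/6 embryos at E18.5, from crushed and collagenase-digested bone marrow from which cells committed to blood lineages had been removed with magnetic beads. The genotypes were wild type (WT) and Bmx-CreER Wls, in which a tamoxifen-inducible Cre under Bmx regulation removes Wls, the carrier that Wnt proteins need for secretion, mainly from arterial endothelium. Each genotype had 1 library, so cells are not replicates, no test between genotypes was possible, and all intervals below are exact 95% intervals that cover counting error only. The number of embryos behind a library, and whether the WT embryos had received tamoxifen, are not given in the sources used here.

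Stromal cells of bone marrow are mesenchymal cells that build the matrix of the marrow cavity and give cytokines to blood stem cells. In the adult, perivascular cells marked by the leptin receptor make most of the Cxcl12 and Kitl on which these stem cells depend. Collagen III, the product of Col3a1, is the fibrillar collagen of soft connective tissue, and decorin (Dcn) coats such fibrils. Periostin (Postn) is a matrix protein of periosteum and other collagen-rich tissue, tetranectin (Clec3b) is a secreted lectin that binds plasminogen, and pleiotrophin (Ptn) is a heparin-binding growth factor.

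The 5 genes that mark eBMSC-1 lie on separate chromosomes of GRCm38 in the GENCODE annotation, each as a protein-coding gene: Col3a1 at chr1:45311538-45349706 (+), Postn at chr3:54361109-54391037 (+), Ptn at chr6:36714929-36810220 (-), Clec3b at chr9:123150946-123157432 (+) and Dcn at chr10:97479609-97518143 (+). RefSeq promoter windows of GRCm38, 300 bases from 250 before to 50 after a start site, were at hand for 3 of the 5 and are shown because the levels of these genes set the cluster apart. They are written 5′ to 3′ on the strand of the gene, with each match to TATAAA in capitals. Dcn and Clec3b are named only. The windows lie at chr1:45311288-45311587 (+) for Col3a1, chr6:36810130-36810429 (-) for Ptn and chr3:54360857-54361156 (+) for the Postn start site that matches the annotated gene start.
Col3a1: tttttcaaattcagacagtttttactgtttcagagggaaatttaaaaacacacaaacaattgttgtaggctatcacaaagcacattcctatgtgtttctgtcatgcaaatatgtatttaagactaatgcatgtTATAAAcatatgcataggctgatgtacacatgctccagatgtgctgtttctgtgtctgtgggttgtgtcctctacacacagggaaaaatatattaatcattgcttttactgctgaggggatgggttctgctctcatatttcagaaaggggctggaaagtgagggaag
Ptn: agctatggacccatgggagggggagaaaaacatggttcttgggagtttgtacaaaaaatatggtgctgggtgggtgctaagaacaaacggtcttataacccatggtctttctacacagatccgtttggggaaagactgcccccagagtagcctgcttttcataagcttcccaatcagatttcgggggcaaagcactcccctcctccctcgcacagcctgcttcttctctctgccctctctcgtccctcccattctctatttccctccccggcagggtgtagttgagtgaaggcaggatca
Postn: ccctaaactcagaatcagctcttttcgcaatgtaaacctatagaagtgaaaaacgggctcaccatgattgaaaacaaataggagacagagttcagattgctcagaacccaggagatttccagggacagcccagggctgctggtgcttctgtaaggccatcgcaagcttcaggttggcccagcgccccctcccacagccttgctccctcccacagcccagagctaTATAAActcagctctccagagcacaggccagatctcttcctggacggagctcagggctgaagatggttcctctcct
The 6-letter motif TATAAA, searched on both strands and as a string that does not overlap itself, stood 26 bases before the start site in the Postn window and 117 bases before it in the Col3a1 window, and was not found in the Ptn window. It occurred in 13.6% of all 32851 mouse windows, in 6.76% of the windows of the genes measured here, in 13.0% of those of the genes at least 2-fold higher in eBMSC-1 and in 11.5% of those of the genes at least 2-fold lower. A match is a string in this window and says nothing about binding.

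The WT library held 22708005 UMIs (unique molecular identifiers, each counting 1 captured transcript) over 5998 barcodes, and the Bmx-CreER Wls library 24704991 over 6825. eBMSC-1 cells contributed 2923202 UMIs with a median of 2927 per cell (576 to 8736) and 1463.5 genes, against a median of 3753 UMIs for the other listed BMSCs. Among these the medians ran from 2978 in eBMSC-2 to 6026.5 in OLCs-2, and the 25 aBMSCs stood apart with 1358 UMIs and a mitochondrial share of 21.7%, against 4.09% in eBMSC-1. The libraries shared 49 barcodes, 9 of them in eBMSC-1. Levels are given as CPM, the UMIs of a gene per 1000000 UMIs summed over the cells of a group.

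The 5 marker genes were present as the label has it, which describes the cluster and does not support it, since the cluster was drawn from these transcripts. Of the 940 eBMSC-1 cells, 440 (46.8%) held at least 1 UMI of each of the 5 markers and 73.7% held at least 4 of them, while no eBMSC-2, OLCs-1 or OLCs-2 cell held all 5. Among 953 listed chondrocytes, with a similar median depth of 2765 UMIs, 1 cell (0.105%) held all 5. Mitotic BMSCs carried the same signature, with all 5 markers in 95 of 231 cells (41.1%) at a median of 4077 UMIs. Clec3b was the marker with the least background. It was seen in 68.6% of eBMSC-1 cells and in 0.210% of chondrocytes, or in 51.5% and 0.107% after every cell had been thinned to 1000 UMIs. Col3a1 was seen in all 940 cells, but also in 81.7% of chondrocytes and in 10.3% of HSPCs, which had a median of 6273 UMIs (68.3% and 2.80% after thinning), so its presence alone did not mark the group.

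Within eBMSC-1 the markers varied from cell to cell. Col3a1 had a median of 17603 CPM per cell, and the 10th and 90th percentiles were 9239.5 and 31218. The median was 13807 in mitotic BMSCs, 5896 in eBMSC-2, 294 in OLCs-1 and 0 in OLCs-2, so that the 10th percentile of eBMSC-1 lay above the median of each of the last 3. Postn had a median of 2232.5 CPM, Ptn of 953, Clec3b of 737 and Dcn of 694, and for the last 3 the 10th percentile was 0, at medians of only 2 or 3 UMIs per cell. In summed profiles the ratio of eBMSC-1 to the other listed BMSCs was 3.77 (3.49 to 4.07) for Clec3b, 3.15 (3.01 to 3.29) for Postn, 2.95 (2.90 to 2.995) for Col3a1, 2.57 (2.43 to 2.73) for Dcn and 2.40 (2.26 to 2.55) for Ptn. Since the clusters were drawn from the same transcripts, every ratio between subclusters here is a description and carries no test. Taken against mitotic BMSCs alone, Ptn was at 0.9503 (0.891 to 1.01) and Postn at 1.16 (1.11 to 1.21), and against OLCs-2 alone Dcn was at 1.89.

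**Figure D1:**
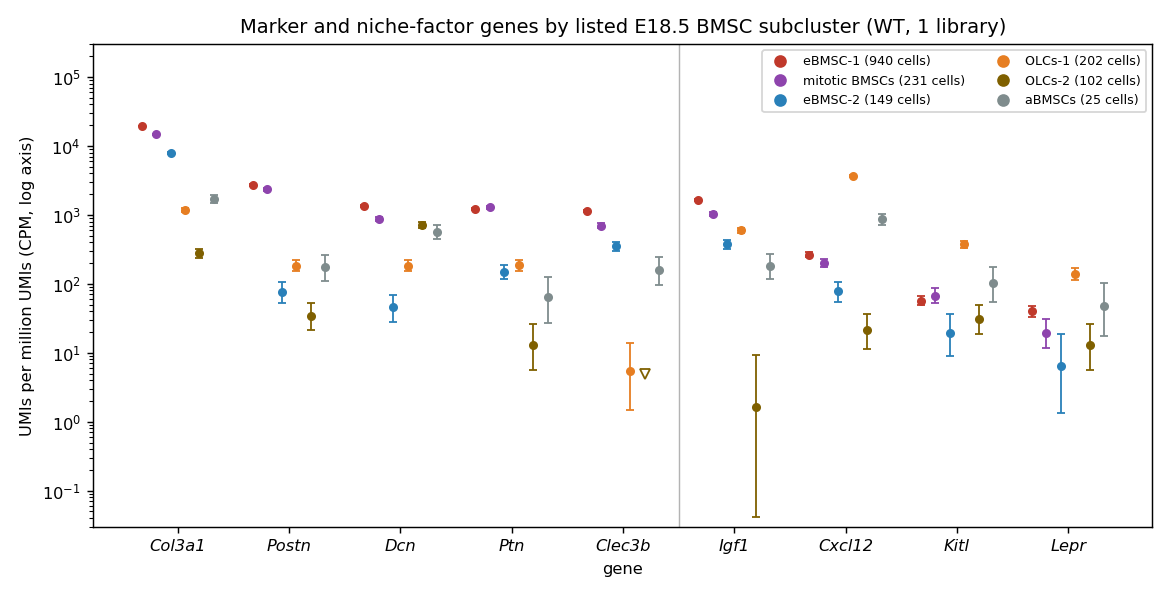
Levels of the 5 marker genes (left of the line) and of the niche-factor genes Igf1, Cxcl12 and Kitl and the leptin receptor gene Lepr (right). Values are from the listed E18.5 BMSC subclusters of the WT library, as CPM on a log axis. Points are summed levels with exact 95% counting intervals, and the open triangle is the limit that 0 counts allow (3 counts): Col3a1 falls from 19559 CPM in eBMSC-1 to 275 CPM in OLCs-2, whereas Cxcl12 peaks in OLCs-1 at 3638 CPM.

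Across 7178 genes with at least 100 UMIs in the listed BMSCs, eBMSC-1 was closest to mitotic BMSCs, with a Pearson r of 0.856 between the log levels, then to eBMSC-2 with 0.797 and to chondrocytes with 0.706. OLCs-1 followed with 0.665, aBMSCs with 0.595, OLCs-2 with 0.561, endothelial cells with 0.530 and HSPCs with 0.400. These correlations run across genes, which are not independent replicates, and the groups share 1 library. In all, 262 genes (3.65%) were at least 2-fold higher and 515 (7.17%) at least 2-fold lower in eBMSC-1 than in the other listed BMSCs pooled, and the median log2 ratio over all genes was -0.08. Taken singly, 2.52% of the genes were higher and 6.12% lower against mitotic BMSCs, 9.53% and 9.64% against eBMSC-2, 10.5% and 10.4% against OLCs-1, and 28.7% and 6.62% against OLCs-2. Only 14 genes (0.195%) were at least 2-fold higher than in each of mitotic BMSCs, eBMSC-2, OLCs-1 and OLCs-2.

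The genes with the highest ratios were of low to middling level. Tcea3, a transcription elongation factor, stood first at 7.61 (4.42 to 14.0), with 39.3 CPM in eBMSC-1 and 5.17 CPM in the others. Pi16, Scara5 and Mfap5 are known from the fibroblasts that wrap vessels and organs. Pi16 was at 5.97 (4.35 to 8.38), the chemokine gene Cxcl14 at 4.77 (3.64 to 6.35), the ferritin receptor gene Scara5 at 4.20 (2.87 to 6.30) and Mfap5, a microfibril component, at 4.05 (3.66 to 4.49). Receptors were also present. Ntrk2, the receptor of brain-derived neurotrophic factor, was at 5.81 (3.88 to 9.01), and Agtr2, an angiotensin II receptor, at 4.19 (3.88 to 4.54) with 1156 CPM. Tek, the angiopoietin receptor better known from endothelium, was at 4.86 (2.98 to 8.30). It was seen in 7.66% of eBMSC-1 cells (3.01% after thinning), in none of 953 chondrocytes, which allows up to 0.386% of cells with a UMI at this depth and says nothing of cells that express the gene, and in 39.5% of endothelial cells (19.4% after thinning), which had a median of 2841 UMIs.

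Secreted regulators of growth formed the next set among the top 20. Fst, an activin antagonist, was at 4.05 (3.03 to 5.50). Igfbp3, a binding protein of insulin-like growth factors, was at 4.00 (3.57 to 4.49), and Pappa2, a protease that frees those factors from their binding proteins, at 4.00 (2.998 to 5.42). Asporin (Aspn), a small proteoglycan of periosteum and cartilage surfaces, had the highest level of the 20, with 2122 CPM (2070 to 2176) against 519 CPM and a ratio of 4.09 (3.86 to 4.33). Aspn was found in 83.7% of eBMSC-1 cells and 4.20% of chondrocytes (73.7% and 2.04% after thinning). The remaining genes of the 20 ran from 4.05 to 5.56 and were Aoc3, an amine oxidase, the protease gene Adam33, the scaffold gene Akap12, the microtubule-binding gene Dcx, the transcription factor gene Klf14, Galnt18, Apod and Fndc1.

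**Figure D2:**
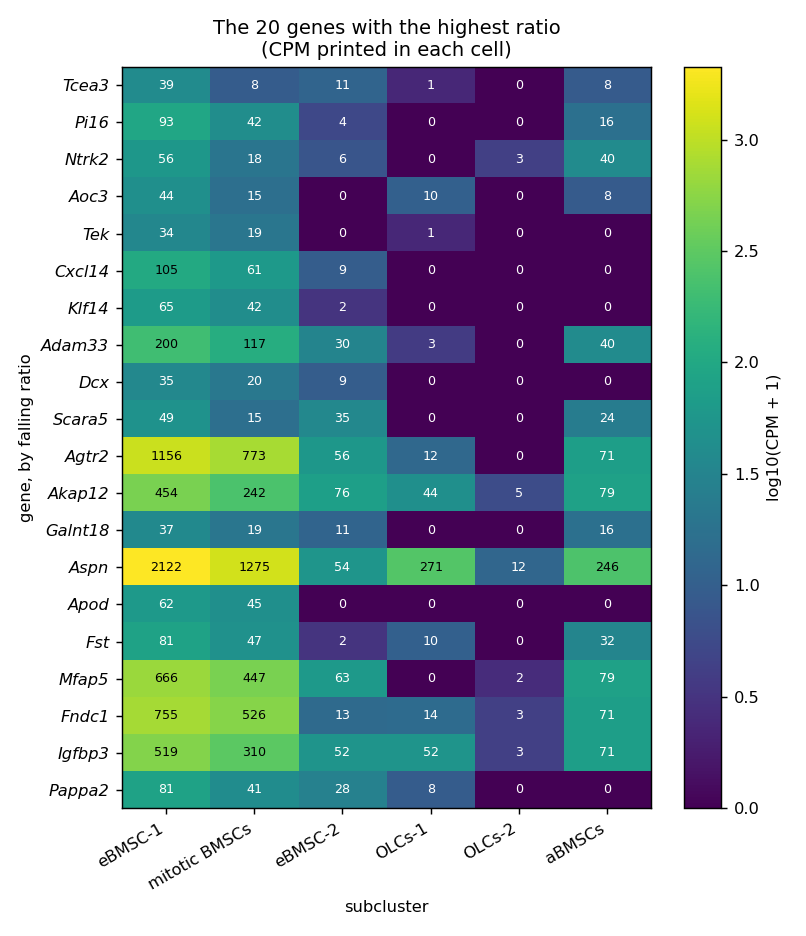
The 20 genes with the highest ratio of eBMSC-1 to the other listed E18.5 BMSCs, with the summed CPM printed in each cell and the colour giving log10(CPM + 1). In every row the level in mitotic BMSCs lies below that of eBMSC-1, at 8.19 CPM or more, while OLCs-2 stays at 11.5 CPM or less.

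Few of these genes were 2-fold higher against every neighbour. Tcea3 had the largest smallest ratio, 3.64 against eBMSC-2, and was 4.80 (2.36 to 11.4) times its level in mitotic BMSCs. Ntrk2 and Aoc3 followed, with smallest ratios of 3.04 and 2.87, both against mitotic BMSCs. The 14 genes past 2-fold against each of the 4 subclusters also held Sfrp4, a secreted Wnt antagonist (2.20), the homeobox gene Prrx2 of limb mesenchyme (2.194), the proteoglycan gene Ogn (2.08), Wnt9a, a Wnt ligand of joint-forming tissue (2.05), Anpep, a membrane peptidase (2.40), and Pi16 (2.21). Airn (2.02), Mettl1 (2.07), Prr5 (2.09), Tro (2.40) and Sema6c (2.43) made up the rest. Airn lies antisense to Igf2r, and whether the counting used strand is not given in the sources used here, so its value is uncertain. None of the 5 marker genes was among them, since all of them had ratios under 2 against mitotic BMSCs. Tcea3 was seen in 107 cells of eBMSC-1 (11.4%) and 2.31% of chondrocytes, or 4.51% and 1.39% after thinning, so the gene was sparse even where it was highest.

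Several lists of matrix genes were higher. Of 19 elastic-fibre and microfibril genes, 12 were at least 2-fold higher and none lower, with a median log2 ratio of 1.08, and the summed level of the list was 9479 CPM against 4423 CPM. Mitotic BMSCs had much of it too, with 7171 CPM. None of the 19 was 2-fold higher in eBMSC-1 than in mitotic BMSCs, where 2.52% of all genes were. Elastin (Eln) was at 3.97 (2.54 to 6.42), fibulin 2 (Fbln2) at 3.50 (3.23 to 3.81), Mfap4 at 3.40 (3.16 to 3.65) and the fibrillins Fbn1 and Fbn2 at 2.48 and 2.49. Lox, the enzyme that cross-links elastin and collagen, was at 1.07 and thus not among them. Of 13 small leucine-rich proteoglycans, which bind collagen fibrils, 8 were higher and 3 lower, with a median of 1.09. The lower ones were Podnl1, Omd (0.198) and Epyc (0.427), of which Omd is known from bone.

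Of 14 fibrillar and associated collagen genes, 5 were at least 2-fold higher and none lower, with a median log2 ratio of 0.81. Besides Col3a1 they were Col14a1 (3.59), which associates with fibrils, Col8a2 (2.61), Col16a1 (2.26) and Col5a1 (2.13). None of the 14 was 2-fold higher than in mitotic BMSCs, where 2.52% of all genes were. Col1a1 took 4.13% of all eBMSC-1 UMIs and was the most abundant transcript in eBMSC-1, with 41309 CPM. It was 2.02 times the level of OLCs-1 and 0.262 times that of OLCs-2, and its ratio to all pooled cells was 0.770 (0.764 to 0.776). Of 12 basement-membrane genes only Lama2 was past 2-fold (2.47). Of 22 matricellular and adhesive genes 7 were higher and 4 lower: tenascin X (Tnxb, 3.01) and thrombospondin 2 (Thbs2, 2.29) were higher, and tenascin C (Tnc, 0.169) was lower, with 4442 CPM in OLCs-1 and 242 CPM in eBMSC-1. Of 23 proteases and inhibitors 2 were higher and 4 lower.

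Genes of universal fibroblasts, cells found around vessels and in the connective tissue of most organs, showed the same direction. Of 24 measured members, 13 were at least 2-fold higher and none lower, with a median log2 ratio of 1.22, and their summed level was 8625 CPM in eBMSC-1, 6579 in mitotic BMSCs, 6444.5 in eBMSC-2, 877 in OLCs-1 and 867 in OLCs-2. Dpt, which codes for dermatopontin, was at 2.72 (2.51 to 2.94), Igfbp6 at 3.43 (2.97 to 3.98), Dpp4 at 3.39 (2.53 to 4.599) and Cd34 at 2.36 (2.193 to 2.54). eBMSC-2 shared part of the list. Against eBMSC-2 alone 11 members were at least 2-fold higher and 5 at least 2-fold lower, where 9.53% and 9.64% of all genes were, and Cd34 and Sfrp2 lay at 0.919 and 0.898 times the eBMSC-2 level. Of 10 genes of perichondrium and periosteum, the sheaths of cartilage and bone, 6 were higher and none lower than in the pooled cells, with a median of 1.23. That list summed to 6184 CPM in eBMSC-1, 4740 in mitotic BMSCs, 730 in eBMSC-2 and 5957 in HSPCs. Of the 10 genes 1 was 2-fold higher than in mitotic BMSCs, where 2.52% of all genes were.

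**Figure D3:**
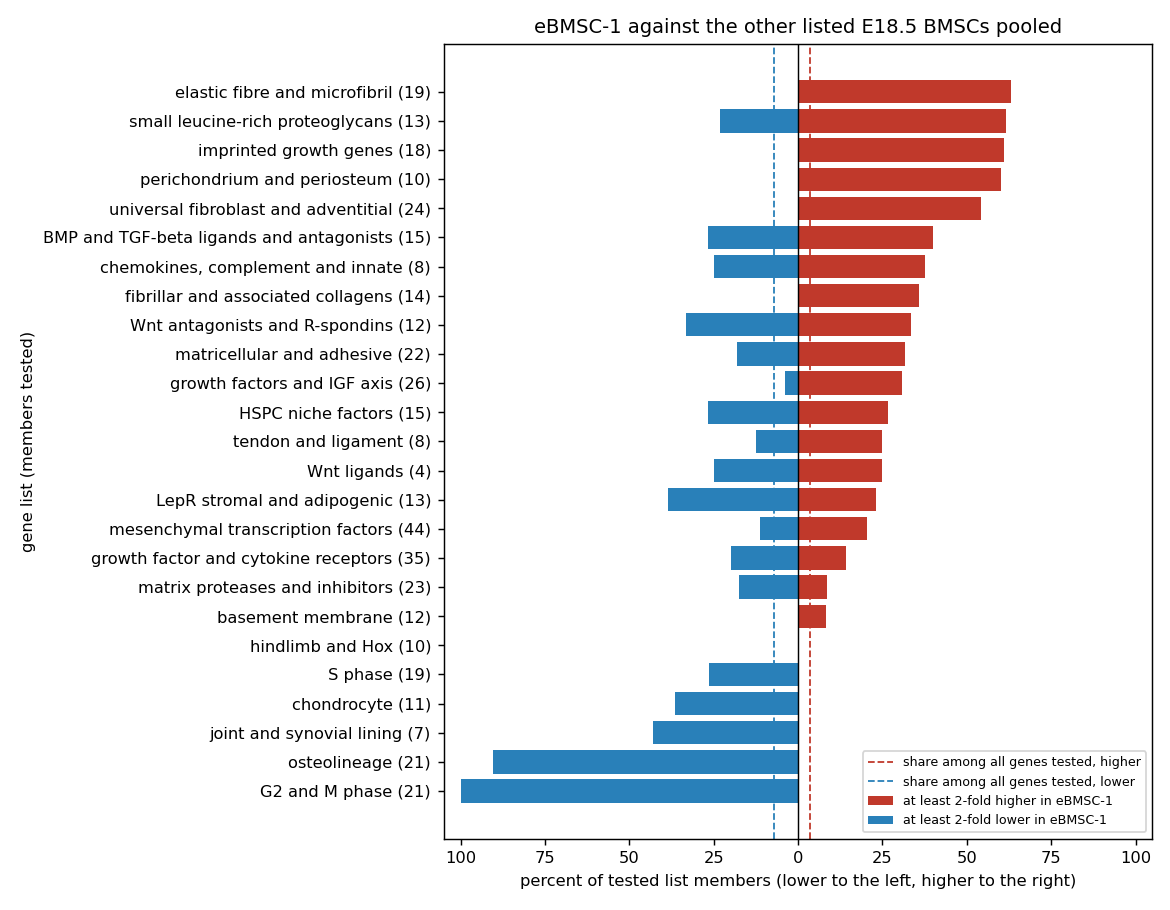
Percent of the tested members of each gene list that were at least 2-fold higher (right) or lower (left) in eBMSC-1 than in the other listed E18.5 BMSCs pooled, with the number tested in brackets. Dashed lines mark the share of all 7178 genes, 3.65% higher and 7.17% lower; elastic-fibre genes lie far right, with 12 of 19 higher, and G2 and M phase genes far left, with 21 of 21 lower.

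The skeletal programmes were low. Of 21 osteolineage genes, 19 were at least 2-fold lower and none higher, with a median log2 ratio of -4.27, and the list summed to 1240 CPM in eBMSC-1, 1122 in mitotic BMSCs, 1287 in eBMSC-2, 23780 in OLCs-1 and 52634 in OLCs-2. Ibsp, which codes for bone sialoprotein, had 14 UMIs in 940 cells and 28541 in the other 709, a ratio of 0.000487 (0.000266 to 0.000817). Mmp13, the collagenase of bone and growth plate, had 3 UMIs against 6831 and a ratio of 0.000436 (8.98e-05 to 0.00127). Osteopontin (Spp1) was at 0.00357 (0.0020 to 0.00589) and osterix (Sp7), a transcription factor that osteoblasts require, at 0.0159 (0.00818 to 0.0279). Slc13a5 and Slc36a2 had no UMI in eBMSC-1, which puts their ratios at no more than 0.0128 and 0.0160. Runx2, the master regulator of osteoblasts, was at 12.0 CPM against 201 CPM. Also among the 15 lowest were Car3, Vdr, Ifitm5, Entpd3, Rab37 and Insc, with 4 UMIs or fewer each, the mitotic gene Hmmr, and Mmp9 at 0.00323.

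Mmp9 is a gelatinase made in large amounts by osteoclasts. In OLCs-1, 57 of 202 cells held at least 3 UMIs of the macrophage and osteoclast list, up to 473 in a cell, while none of 940 eBMSC-1 cells did, and the part of such cells in the Mmp9 ratio was not tested. Of 11 chondrocyte genes 4 were lower and none higher, and the list summed to 1183 CPM against 121457 CPM in listed chondrocytes. The joint list had 3 of 7 members lower, among them lubricin (Prg4) at 0.261 and Clic5 at 0.0274. Both were highest in eBMSC-2, where Prg4 reached 1244 CPM and Clic5 1503 CPM. Of 8 tendon genes 2 were higher, Kera (3.28) and Chodl (2.67), and 1 lower, Egr2.

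Among 15 measured factors known to act on HSPCs, 4 were at least 2-fold higher and 4 lower in eBMSC-1. The higher ones were Igf1 at 2.90 (2.74 to 3.07) with 1632 CPM, Nov at 2.52 (2.36 to 2.69) with 1121 CPM, Ptn, and Angptl2 at 2.36 (2.07 to 2.69). Igf1 was seen in 79.4% of eBMSC-1 cells and 3.25% of chondrocytes, or 61.9% and 1.39% after thinning. Those lower were Kitl (0.432), Angpt1 (0.375), Cxcl12 and Spp1. Cxcl12, the chemokine that holds blood stem cells in the marrow, was at 0.257 (0.237 to 0.278) of the pooled level, most of which came from OLCs-1, where it was at 3638 CPM. Against the other subclusters the eBMSC-1 level of 266 CPM was not the lowest: it was 1.33 (1.14 to 1.57) times that of mitotic BMSCs, 3.42 times that of eBMSC-2 and 12.4 times that of OLCs-2. Cxcl12 was found in 40.2% of eBMSC-1 cells and 9.02% of chondrocytes, or 21.9% and 4.72% after thinning.

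The list of genes of leptin-receptor stroma and its fat-forming branch was split, with 3 of 13 higher and 5 lower. Those higher were Cxcl14, the transcription factor gene Ebf2 (3.31) and Zfp423 (2.25), and the lower ones included lipoprotein lipase (Lpl, 0.203) and Foxc1. Of 26 genes of growth factors and the IGF axis, 8 were higher and 1 lower. Fgf10, a ligand of limb and lung mesenchyme, was at 3.64 (2.57 to 5.25) and Fgf18, a regulator of skeletal growth, at 2.74 (1.88 to 4.08), while Pdgfd was lower. Of 35 receptors 5 were higher and 7 lower. Besides Ntrk2 and Tek those higher were Il11ra1, Acvrl1 and the TGF-beta receptor gene Tgfbr2 (2.188), and the lower ones included Lifr and Fgfr2.

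Because the mutant of this study blocks Wnt secretion, the Wnt genes of eBMSC-1 were set out singly. Only 4 of the 16 listed ligands in the files passed the minimum of 100 UMIs, so ligand transcripts were scarce, with a sum of 279 CPM. Wnt9a was higher at 3.93 (2.85 to 5.51), Wnt4 was lower, and Wnt5a and Wnt11 stood between, at 1.18 and 1.38. Wnt9a was seen in 15.2% of eBMSC-1 cells and 1.26% of chondrocytes, or 6.23% and 0.214% after thinning. Of 12 Wnt antagonists and R-spondins, 4 were higher and 4 lower. Sfrp4 (3.97), Sfrp2 (2.68), the feedback inhibitor gene Nkd1 and Rspo2 (3.78), which amplifies Wnt signals, were higher, and Dkk1, Wif1 (0.193), Frzb and Rspo3 were lower. Of 15 ligands and antagonists of the BMP and TGF-beta families, 6 were higher, among them Tgfb3 (2.89), Tgfb2 (2.193), Chrd and Fstl1 (2.05, with 6724 CPM), and 4 were lower, among them Bmp2 (0.277), which lay at 0.0583 times its eBMSC-2 level. Of 8 chemokine, complement and innate genes 3 were higher and 2 lower.

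Of 44 transcription factors of mesenchyme, 9 were at least 2-fold higher and 5 lower. Those higher included Twist2 (3.47), a basic helix-loop-helix factor of dermis and limb, Prrx2 (3.41), Ebf2, Meox1 (2.95), Hic1 (2.40), a marker of quiescent mesenchymal progenitors, Foxp2 (2.27) and Osr1 at 2.47 (2.10 to 2.91), a factor of limb connective tissue. Osr1 was seen in 35.2% of eBMSC-1 cells and 2.73% of chondrocytes (13.7% and 0.965% after thinning), and its level was 1.11 times that of eBMSC-2. None of 10 limb-identity and Hox genes passed 2-fold in either direction, and their median log2 ratio was 0.32. Pitx1, which sets hindlimb identity, was at 119 CPM in eBMSC-1, and Tbx5, known for the forelimb, at 66.0 CPM. Of 266 eBMSC-1 cells with a UMI of Pitx1, 52 (19.5%, 14.96 to 24.8) also held Tbx5, against 14.4% of the cells without Pitx1, at medians of 3216.5 and 2841 UMIs. In eBMSC-1-like cells of the other library the shares were 15.2% and 12.1%.

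Imprinted growth genes were an abundant set among the higher lists. They summed to 75441 CPM in eBMSC-1, 56718 in mitotic BMSCs, 57930 in eBMSC-2, 19904 in OLCs-1, 2497 in OLCs-2 and 66329 in chondrocytes. Of 18 members 11 were at least 2-fold higher than in the pooled BMSCs and none lower, with a median log2 ratio of 1.33. H19, a non-coding RNA, took 3.15% of the UMIs of eBMSC-1 against 1.59% in the others, and the neighbouring growth factor gene Igf2 took 1.82% against 0.917%, both with a ratio of 1.98. Dlk1, an inhibitor of fat cell formation, was at 3.25 (3.18 to 3.33), and its non-coding neighbours Meg3, Rian and Mirg were at 3.65, 3.21 and 3.09. Cdkn1c, a cell cycle inhibitor, was at 2.77 (2.66 to 2.88), the zinc finger gene Plagl1 at 2.52 (2.42 to 2.61), Peg3 at 2.51 (2.41 to 2.61) and Mest at 2.82 (2.60 to 3.06). Against eBMSC-2 alone 11 of the 18 were at least 2-fold higher and none lower, but H19 and Igf2 were not among them, at 1.10 and 0.881. None of the 18 was 2-fold higher than in mitotic BMSCs, where 2.52% of all genes were. Against OLCs-2, H19 and Igf2 were at 68.5 and 27.8.

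Cell cycle genes separated eBMSC-1 from mitotic BMSCs. All 21 measured genes of G2 and M phase were at least 2-fold lower than in the pooled BMSCs and than in mitotic BMSCs, and the list summed to 302 CPM against 10339 CPM in mitotic BMSCs. Top2a, which untangles DNA before division, was at 0.0208 (0.0170 to 0.0254) of its mitotic level and Mki67 at 0.0377 (0.0302 to 0.0467). At least 3 UMIs of the list were held by 74 eBMSC-1 cells (7.87%) and 92.6% of mitotic BMSCs, or by 2.69% and 85.9% after thinning. S phase genes were closer, with 12 of 19 at least 2-fold lower than in mitotic BMSCs, where 6.12% of all genes were, and with 31.1% against 80.1% of cells (9.13% and 44.1% after thinning). The 10 genes lowest against mitotic BMSCs held 8 of division, Hmmr, Nusap1, Ccnb1, Esco2, Mastl, Aurka, Mxd3 and Plk1, and also Ednrb, an endothelin receptor gene. At least 3 UMIs of the Schwann and nerve list were found in 27 of 231 mitotic BMSCs (11.7%) and 5 eBMSC-1 cells (0.532%), and their part in the Ednrb value was not tested. The genes highest against mitotic BMSCs rested on few counts: Cd1d1 was at 9.86 (2.61 to 83.3) with 59 UMIs in eBMSC-1, and Jarid2, a chromatin regulator, at 4.93 (1.83 to 18.7).

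eBMSC-1 was not uniform. Leiden clustering of its 940 cells gave 9 groups, called here by their leading gene, and their sizes were 238 cells (Cxcl14), 159 (Tspan15), 148 (Pi16), 127 (Steap4), 104 (Cytl1), 45 (Kera), 42 (4930506M07Rik), 41 (Npnt) and 36 (Cygb). The leading genes define the groups and are given as a description. The sharpest was the Npnt group, in which Npnt, an integrin ligand of basement membranes, was at 102 (63.6 to 170) times its level in the other eBMSC-1 cells, followed by Chad, Col8a1 and the R-spondin gene Rspo3 at 44.6, 41.3 and 28.2. In the Kera group the tendon and cornea proteoglycan gene Kera was at 39.5 (27.7 to 57.1), tenomodulin (Tnmd) at 33.8 (27.7 to 41.4) and fibromodulin (Fmod) at 26.1 (22.5 to 30.3), and the tendon list summed to 8042 CPM, against 1255 to 2551 CPM in the other groups. In the Pi16 group Pi16 was at 21.3 (15.4 to 30.1), and the universal fibroblast list reached 15542 CPM, against 2837 to 8315 CPM elsewhere, with Dcn at 3033 CPM and Ly6a at 1117 CPM. The Cygb group held Ngfr, the nerve growth factor receptor gene, at 24.4 and Lepr at 16.0 (10.8 to 23.4) times the other cells, and had the highest Cxcl12 and Kitl of the 9, at 808 and 258 CPM. Its 36 cells also had the highest mural marker sum, 906 CPM.

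Not all groups were equally firm. The Cytl1 group led with cartilage genes, Cytl1 at 48.6 and Col2a1 at 20.1 (18.1 to 22.4). Of its 104 cells 18 lay among the 348 WT cells with the highest doublet scores, as against 36 of all 940. The Cygb group had 5 such cells of 36, the Npnt group 3 of 41 and the Kera group 1 of 45. Their part in these groups was not tested. The Cxcl14 group was set apart weakly, at 2.87 (2.28 to 3.61) for Cxcl14. When the resolution was raised to 1.0, which gave 11 groups, all cells of the Kera, Npnt and Cygb groups stayed together, as did 96.2% of the Cytl1 group, but only 42.0% of the Cxcl14 group. The marker genes themselves differed among the groups. Col3a1 ran from 13623 CPM in the Cytl1 group to 25376 CPM in the Pi16 group, and Clec3b from 0 in the Npnt group to 2183 CPM in the Pi16 group. Igf1 ran from 404 CPM in the Tspan15 group to 3076 CPM in the Steap4 group.

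**Figure D4:**
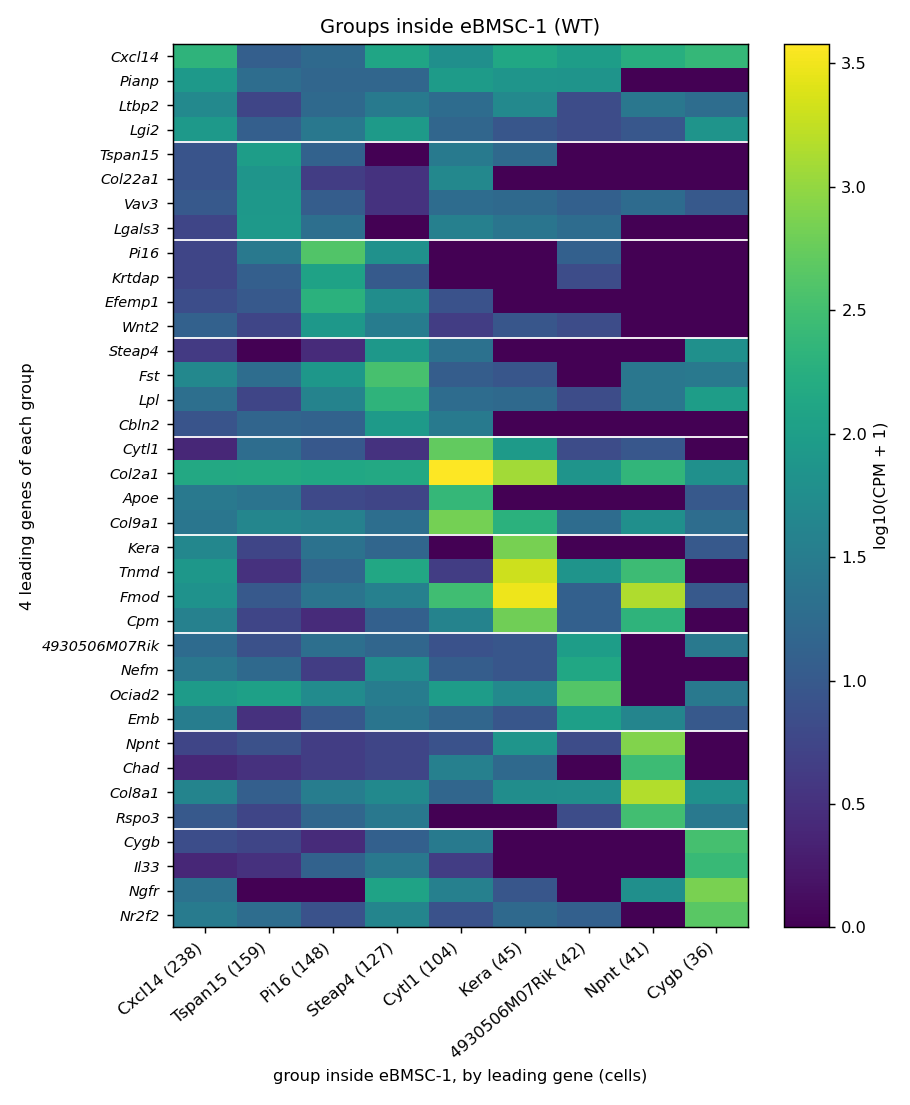
The 4 leading genes of each of the 9 groups inside eBMSC-1 (rows, set off by white lines) in all groups (columns, with cell numbers), as log10(CPM + 1) in the WT library. The Npnt, Kera, Cygb and Pi16 blocks are bright in their own column, with Npnt at 799.8 CPM in its group, whereas Cxcl14 is spread over most columns.

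The same groupings were looked for in the Bmx-CreER Wls library, whose cells had no part in drawing them. There, 725 eBMSC-1-like cells, named by a vote of the nearest WT cells, were clustered on their own, and for each WT group the number of its 8 leading genes that were highest in 1 and the same group was counted. It was 8 of 8 for the Npnt group, 6 of 8 for the Steap4 and Cytl1 groups, 5 of 8 for the Pi16 and Cygb groups, 4 of 8 for the Kera group and 2 or 3 of 8 for the other 3. Each is the best count over the groups of that library, and the count that unrelated genes would give was not tested. Leading genes shared with those of a group there were fewer. They numbered 5 for the Npnt, Steap4 and Kera groups, 4 for Cytl1, 2 for Pi16 and Tspan15, 1 for Cygb and 0 for Cxcl14 and 4930506M07Rik. In the Cytl1 match the leaders Apoe and Stc1 were low, at 0.314 and 0.327 times the other cells (18.4 and 14.8 in WT). Col2a1 reached 29206 CPM in that match and 3785 CPM in the WT group, so the match was partial. The Npnt match held 42 cells (5.79%, 4.21 to 7.75), against 4.36% (3.15 to 5.87) in WT, and Npnt itself was at 47.3 (30.3 to 75.7) times its level in the other cells. The other shares differed more, with 2.48% (18 cells) against 11.1% for the Cytl1 match and 10.5% against 15.7% for the Pi16 match. All WT shares here are of the 940 listed cells, and those of the matches are of the 725 vote-named cells. The Kera match held 14.5%, but the same cells were also the best match of the Cxcl14 group, and these WT groups held 4.79% and 25.3%. Kera, Fmod and Tnmd were at 6.13, 6.04 and 2.64 times the other cells there (39.5, 26.1 and 33.8 in WT). Col11a2 was at 0.977 (11.3 in WT), so the Kera match was partial too. In 3 cases a pair of WT groups had its best match in the same cells. They were Cygb and Steap4 in 13.9% of the cells, Kera and Cxcl14 in 14.5%, and Tspan15 and 4930506M07Rik in 12.4%. The Cxcl14 match rested on 2 of 8 leading genes, with Cxcl14 at 2.40 but Lgi2 at 0.360 (0.114 to 0.874) times the other cells. Tspan15 and 4930506M07Rik matched on 3 of 8 each, with Tspan15 at 11.9 and 4930506M07Rik at 1.03 (0.113 to 4.56). The Cxcl14 and 4930506M07Rik groups were thus not clearly found in that library. Pairs of genes in single cells were counted without clusters. Of 103 WT eBMSC-1 cells with Pi16, 42 (40.8%, 31.2 to 50.9) also held Dpp4, against 9.32% of those without Pi16, and in that library 6 of 21 (28.6%, 11.3 to 52.2) against 5.82%. Of 52 WT cells with Kera, 28 (53.8%, 39.5 to 67.8) also held Tnmd, against 9.35%, and in that library 43 of 57 (75.4%, 62.2 to 85.9) against 9.88%. Pi16 and Tnmd met in 6 of the 103 Pi16 cells (5.83%), against 12.5% of the others. Cells with Pi16 were deeper, with a median of 3880 UMIs against 2855, and the part of depth in these shares was not tested.

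Markers of blood, muscle and vessel lining were rare in eBMSC-1. At least 3 UMIs of the haematopoietic list were found in 1 of 940 cells, of the erythroid list in 4, of the skeletal muscle list in 3 and of the endothelial list in 8 (0.851%), with up to 23 UMIs in a cell. The endothelial list summed to 60.2 CPM in eBMSC-1, 41.4 CPM in the other BMSCs and 10899 CPM in endothelial cells. Other lists were met more often. The list of aBMSC markers was found in 221 cells (23.5%), against 23.4% of mitotic BMSCs and 75.7% of OLCs-1. It was met in 4 of the 25 shallow aBMSCs (16.0%), so reaching 3 UMIs of it did not mark aBMSCs here. The OLCs-1 list was found in 143 cells (15.2%), against 30.7% of mitotic BMSCs and 98.5% of OLCs-1. The chondrocyte list was found in 196 (20.9%, 18.3 to 23.6), with up to 410 chondrocyte UMIs in a cell. The chondrocyte list summed to 1053 CPM in eBMSC-1, 977 to 2067 CPM in mitotic BMSCs, eBMSC-2 and both osteolineage groups, 1124 CPM in HSPCs, 267 CPM in endothelial cells and 109281 CPM in chondrocytes, and how much of it was free RNA was not tested. Mural markers were held by 111 cells (11.8%), against 53.7% of eBMSC-2. The 9 genes listed as eBMSC-2 markers summed to 2376 CPM in eBMSC-1 and 1834 CPM in eBMSC-2, and so did not separate these subclusters by their sum.

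The last comparison was between genotypes, with 1 library each, so a difference between libraries and one between genotypes cannot be told apart. Under 1 rule for both, 1003 cells of the WT library and 725 of the Bmx-CreER Wls library were named eBMSC-1-like, 17.5% (16.5 to 18.49) of 5736 and 10.95% (10.2 to 11.7) of 6620 kept cells. The rule kept 919 of the 940 listed cells and added 47 mitotic BMSCs, 13 OLCs-1, 9 eBMSC-2, 8 aBMSCs, 1 OLCs-2 and 6 unlisted cells. Their median depths were 3010 and 3080 UMIs. The gap between these shares depended on the denominator. Among cells named after any BMSC subcluster they were 61.4% (59.0 to 63.8) of 1634 and 62.1% (59.3 to 64.9) of 1167, and without all cells that held 10 or more UMIs of the chondrocyte markers they were 32.2% and 31.6%. Wls itself was at 135 CPM over all kept WT cells and 112 CPM in the other library, a ratio of 0.832 (0.790 to 0.877), and at 0.730 (0.647 to 0.823) in eBMSC-1-like cells. Since the Cre acts mainly in arterial endothelium and the exons behind the reads were not examined, these values do not check the labels.

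In eBMSC-1-like cells 4 of the 5 markers were lower in the Bmx-CreER Wls library. The groups inside the class took different shares of its cells in the libraries. The Pi16 group held 15.7% of the listed WT cells, and its match 10.5% of the named Bmx-CreER Wls cells. The Kera and Cxcl14 groups, at 4.79% and 25.3% in WT, met in the same 14.5% of the Bmx-CreER Wls cells. The part of these shares in the values that follow was not tested. The ratio to WT was 0.549 (0.518 to 0.581) for Dcn, 0.706 (0.681 to 0.733) for Postn, 0.728 (0.688 to 0.771) for Clec3b and 0.786 (0.776 to 0.796) for Col3a1, while Ptn was at 1.07 (1.02 to 1.12), or 1.01 (0.964 to 1.06) after TMM scaling, which takes the scale from genes that differ little between profiles. For scale, the median over 6861 genes was 1.02 and the 10th and 90th percentiles were 0.791 and 1.35. Universal fibroblast genes went the same way, with a summed ratio of 0.741 (0.727 to 0.757) and 5 of 24 members above 1. Among 4483 genes with at least 200 UMIs, the 5 smallest ratios were those of Pi16 at 0.276 (0.205 to 0.368), Anxa3 at 0.363 (0.269 to 0.485), Tnfrsf11b, a decoy receptor that restrains osteoclasts, at 0.378 (0.284 to 0.496), Sema3d at 0.387 (0.289 to 0.512) and Ly6a, which codes for a surface antigen of stem cells, at 0.419 (0.372 to 0.469). Perichondrium genes summed to 0.686 (0.670 to 0.703), with none of 10 members above 1.

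Tendon and cartilage genes were higher. The tendon list summed to a ratio of 1.67 (1.61 to 1.72), with 9 of 10 members above 1, and the chondrocyte list to 1.99 (1.92 to 2.06), with 10 of 10. When cells with 10 or more UMIs of the chondrocyte markers were left out, these ratios were 1.57 (1.51 to 1.63) and 1.48 (1.38 to 1.59). The chondrocyte list then fell from 5609 to 1647 UMIs in WT and from 8333 to 1692 in Bmx-CreER Wls. The 5 largest ratios were those of Matn1, a cartilage matrix gene, at 4.32 (3.62 to 5.19), Tnmd at 3.35 (3.01 to 3.73), the ribosomal protein gene Rps3a1 at 3.27 (2.96 to 3.61), Col9a2 at 2.87 (2.47 to 3.34) and the protease gene Htra1 at 2.81 (2.38 to 3.32). Rps3a1 has near-identical copies in the genome among which reads may have been split, so its value is uncertain. Without the cells that held 10 or more UMIs of the chondrocyte markers, which left 968 and 670 cells, Matn1 was at 1.44 (0.832 to 2.502) and Col9a2 at 2.11 (1.603 to 2.78), whereas Tnmd stayed at 3.17 (2.81 to 3.58), Pi16 at 0.228 (0.162 to 0.315) and Col3a1 at 0.783 (0.773 to 0.794). Imprinted genes, HSPC niche factors and Hox genes moved little as sums, with ratios of 1.04, 1.09 and 1.08. Members above 1 were 5 of 18, 7 of 14 and 6 of 11, with median ratios of 0.945, 0.993 and 1.03.

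**Figure D5:**
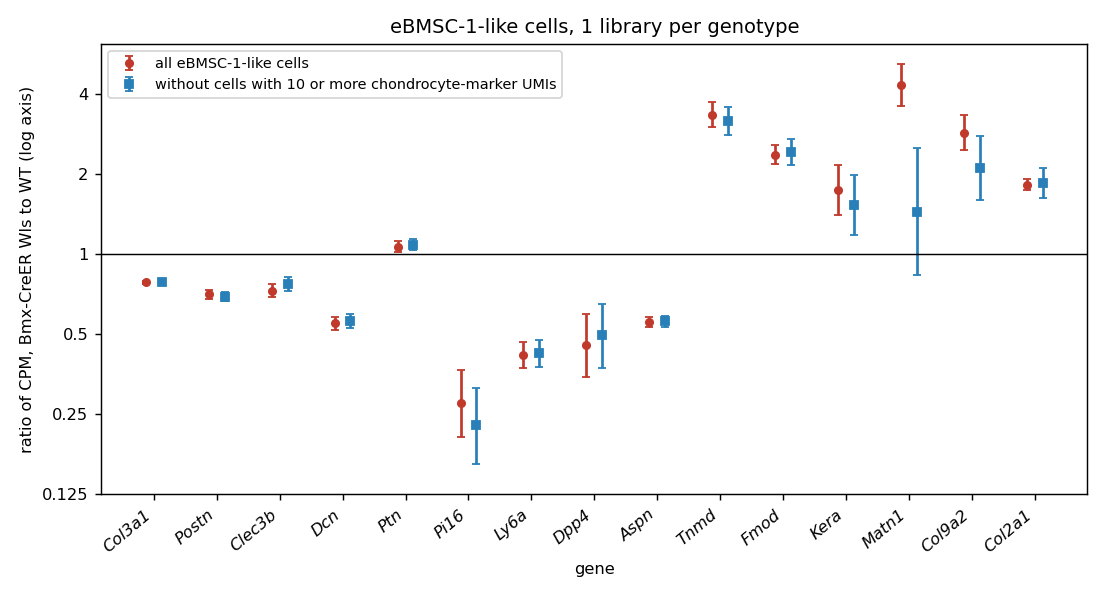
Ratio of the CPM in the Bmx-CreER Wls library to that in the WT library for eBMSC-1-like cells, on a log axis, with exact 95% counting intervals. Red points use all 1003 and 725 cells, and blue squares leave out cells with 10 or more chondrocyte-marker UMIs: Pi16 lies lowest at 0.276 and 0.228, Tnmd stays above 3 in both, and Matn1 drops from 4.32 to 1.44.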

How the data were processed

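Single-cell libraries of E18.5 bone marrow, 1 WT and 1 Bmx-CreER Wls, were made with the BD Rhapsody whole-transcriptome kit. The files as deposited hold raw UMI counts of genes in cells. Per the labels, reads were processed with bcl2fastq 2.19.1.403, UMI-tools 1.0.1, STAR 2.7.1a and featureCounts 1.6.4 on mm10 (GRCm38). Cluster numbers of cells were taken from the study's cell table. The BMSC subcluster names were assigned to these numbers here from marker genes, and more than 1 number was merged under the aBMSC name. Its UMI sums equalled those of the deposited counts in 908 of the 1649 listed BMSCs and differed by 1 to 13 in the other 741.

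Counts were summed over the cells of a group and scaled to 1000000. All intervals were exact at 95% (Poisson for a level, Clopper-Pearson for a share, conditional binomial for a ratio). In simulated data for eBMSC-1 against the other listed BMSCs (7178 genes, 200 of them changed 2-fold), the intervals covered 96.5% of changed and 95.1% of unchanged genes. A sum of 0 was bounded at 3 counts over the group, and sums under 3 were set to 3 for ordering genes and counting 2-fold differences. Genes needed 100 UMIs over the listed BMSCs.

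The study's filter (over 200 and under 5000 genes, mitochondrial share below 30%) left 5736 WT and 6620 Bmx-CreER Wls cells. Doublets were kept, since Scrublet called 45 WT cells (0.785%) and 5 cells of the other library. For naming across libraries, counts were scaled to 10000 per cell and log-transformed, and 2340 variable genes were reduced to 30 principal components. Each cell took the most frequent label among its 20 nearest kept WT cells, itself left out. WT cells outside the BMSC list voted as unlisted, and ties went to the label of the nearest cell. Groups inside eBMSC-1 came from Leiden clustering at resolution 0.5. Python 3.11.15, scanpy 1.11.5, scipy 1.17.1, numpy 2.4.6, pandas 2.3.3, scikit-learn 1.9.0, R 4.3.3 and edgeR 4.0.16 (for TMM factors only) were used.

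The members and the gene lists were chosen with earlier results of these data known. Named genes were the 5 markers, the 20 highest and 15 lowest ratios, the 15 largest smallest ratios over 4 subclusters, the 10 highest and 10 lowest against mitotic BMSCs, members of 26 gene lists and 13 marker lists, the 5 largest and 5 smallest ratios between libraries among genes with 200 UMIs (without mitochondrial, haemoglobin and sex-linked genes), and 8 leading genes with 50 UMIs for each group inside eBMSC-1. Limb and Pi16, Kera and Osr1 gene pairs were chosen after values had been seen. Some genes that this rule names are not reported here.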

Additional observations from a re-analysis of the deposited data

How the results depend on the processing

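With 1 library per genotype no spread between embryos could be had, so each interval covers counting error only, and embryo, library and genotype cannot be told apart. No paired analysis was possible because each genotype has 1 library and the labels give no replicate numbers, and no library could be left out. Of 75 alternative values 54 stayed within their counting interval or within 1.5 times the count, and 21 moved. A change of direction could be scored for ratios only, not for gene counts or shares, and 0 ratios changed direction. TMM scaling gave a Col3a1 ratio to the other listed BMSCs of 3.12 (2.95 as reported), a Col3a1 ratio between libraries of 0.745 (0.786) and a Ptn ratio of 1.01 (1.07). With names from the neighbour vote, Col3a1 was at 3.22, Clec3b at 4.105 (3.77), Cxcl12 at 0.231 (0.257) and the eBMSC-1 share of listed BMSCs at 61.4% (57.0%). With each cell thinned to 1000 UMIs, Col3a1 was at 2.79 and Cxcl12 at 0.237, and 116 genes were at least 2-fold higher (262) and 160 lower (515), with fewer genes reaching 100 UMIs by construction. Equal weights for 4 subclusters gave 3.25 for Col3a1 and 4.28 for Clec3b, and means over cells gave 2.78 for Col3a1 and 0.798 for its ratio between libraries. A minimum of 30 UMIs gave 445 higher and 985 lower genes, and that of 300 UMIs gave 145 and 192. Without cells holding 10 or more chondrocyte-marker UMIs, a setting chosen after seeing the data, eBMSC-1-like cells were 32.2% of WT (17.5%) and 31.6% of Bmx-CreER Wls cells (10.95%). The causes of the other shifts were not tested.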

Other observations

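Of 331 WT eBMSC-1 cells with a UMI of Osr1, a factor of limb connective tissue, 21 (6.34%, 3.97 to 9.53) also held the tendon gene Tnmd, against 14.8% of the cells without Osr1. The median depths were 3374 and 2694 UMIs, and the part of depth was not tested. In the Bmx-CreER Wls library the counts were 10 of 238 (4.20%, 2.03 to 7.59) against 20.3%. Scx, a transcription factor of tendon progenitors, had 27 UMIs in WT and 91 in Bmx-CreER Wls eBMSC-1-like cells, a ratio of 4.51 (2.91 to 7.21), which was 6.85 (3.96 to 12.6) without cells with 10 or more chondrocyte-marker UMIs. Fmod was at 2.37 and Kera at 1.74 between the same cells, and at 2.42 and 1.53 without the cells with chondrocyte markers. The Pi16 and Efemp1 pair met in 36 of 103 WT cells with Pi16 (35.0%, 25.8 to 44.97) and 3.46% of the others. Tbx4 and Tbx5 met in 15 of 95 WT cells with Tbx4 (15.8%), against 15.9% of the others. These pairs were chosen after their values had been seen, and each rests on 1 library per genotype.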
